A study of Mus musculus with 5464 samples.

Results

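Kidney endothelial cells of diabetic *ob/ob* mice were compared between 11 and 20 weeks of age. The *ob/ob* mice lack leptin, and they become obese and diabetic. The comparison held 1768 of the 5464 cells of the series, chosen by genotype and age alone: 867 cells at 11 weeks on plates 1052s, 1053s, 1054s and 1056s, and 901 cells at 20 weeks on plates 040s, 042s, 044s and 045s. All mice of both ages carried the same homozygous leptin mutation, and no treatment is named. The labels give the strain as C57BL/6, whereas the methods of the study name female BTBR mice with 3 animals per group. Cells were taken after removal of the papilla, sorted as CD31-positive and live, and sequenced 1 cell per well with SmartSeq2, which copies whole transcripts and has no molecular identifiers. Lean littermates, heterozygous or wild type at the leptin locus, had 1375 cells on 5 plates at 11 weeks and 588 cells on 2 plates at 20 weeks, and their levels are given as background.

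The renal endothelium is a chain of unlike vessels. Afferent arterioles feed the fenestrated glomerular capillaries, efferent arterioles drain them, and the blood then passes through peritubular capillaries or the vasa recta. Diabetic kidney disease is known for early loss of endothelial function and of capillaries, and endothelial cells regulate vessel tone, clotting, leukocyte entry and the passage of fatty acids and glucose into the tissue. The question of the comparison is what differs in these cells once diabetes is established.

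Counts were summed over all cells of a plate and are given as CPM, the counts scaled to 1e6 per plate. The labels name plates but no animal, so each age was 1 sample, no test was possible and no p-value is given. Means ± SD are over the 4 plates of an age and describe plates, which may share a mouse. A gene is called higher or lower at 20 weeks where no plate of one age overlapped a plate of the other and the ratio of the means, with 1 CPM added to both, was at least 1.5-fold. The 95% intervals of pooled counts are exact Poisson intervals. They hold counting error of reads alone. PCR copies of one molecule are not separate observations, so the intervals are too narrow for the error of counting molecules. In sums over cells, fewer cells of a type and less RNA per cell cannot be told apart. Plate values are listed in the order given above. The totals were 218251216 counts at 11 weeks and 299553160 at 20 weeks.

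The plates differed within each age. Median counts per cell were 187239 to 381783 at 11 weeks and 291421 to 334959 at 20 weeks, and median genes per cell at an equal depth of 50000 counts were 1761 to 2799 and 2045 to 3495. The summed level of cytosolic ribosomal protein genes was 18517 and 20657 CPM on plates 1052s and 1053s against 10937 and 9421 CPM on 1054s and 1056s, and at 20 weeks 19663 and 17651 CPM on 042s and 045s against 8859 and 8994 CPM on 040s and 044s. Every plate held 1 group only, and all 11-week plates of both genotypes are numbered above 1000 while all 20-week plates are numbered below 100. Age and plate series cannot be told apart. The endothelial label held on all 8 plates: *Pecam1*, the antigen of the sort, was 2139.7 to 2733 CPM at 11 weeks and 2031 to 2672 CPM at 20 weeks. *Xist* was 221 to 511 CPM on all 8 plates, as in cells of females, but below 1 CPM on both Lean plates at 20 weeks and on 2 of the 5 Lean plates at 11 weeks. On those Lean plates the Y-chromosome genes *Ddx3y* and *Eif2s3y* were at 0 to 0.037 CPM. The reason for the low *Xist* was not tested.

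Of 10701 autosomal and mitochondrial genes with a mean of at least 5 CPM, 282 (2.64%) were higher and 128 (1.20%) were lower at 20 weeks, among them 110 and 53 with at least a 2-fold ratio. The higher genes therefore made up 68.8% of those called. This split was not the same under other scalings: with edgeR's TMM factors it was 235 higher and 167 lower (58.5% higher), and with DESeq2's size factors 191 higher and 199 lower (49.0%). In the Lean plates, 5 against 2, the same rule gave 4.80% higher and 4.02% lower. Fewer plates at one age separate more easily, so these shares cannot be compared with those of *ob/ob*. The genes called in *ob/ob* lay on both sides in Lean, with median log2 ratios there of 0.06 for those higher and -0.004 for those lower. Of the 282 higher genes 8 were higher and 10 lower in Lean, and of the 128 lower genes 5 were lower and 9 higher.

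**Figure D1:**
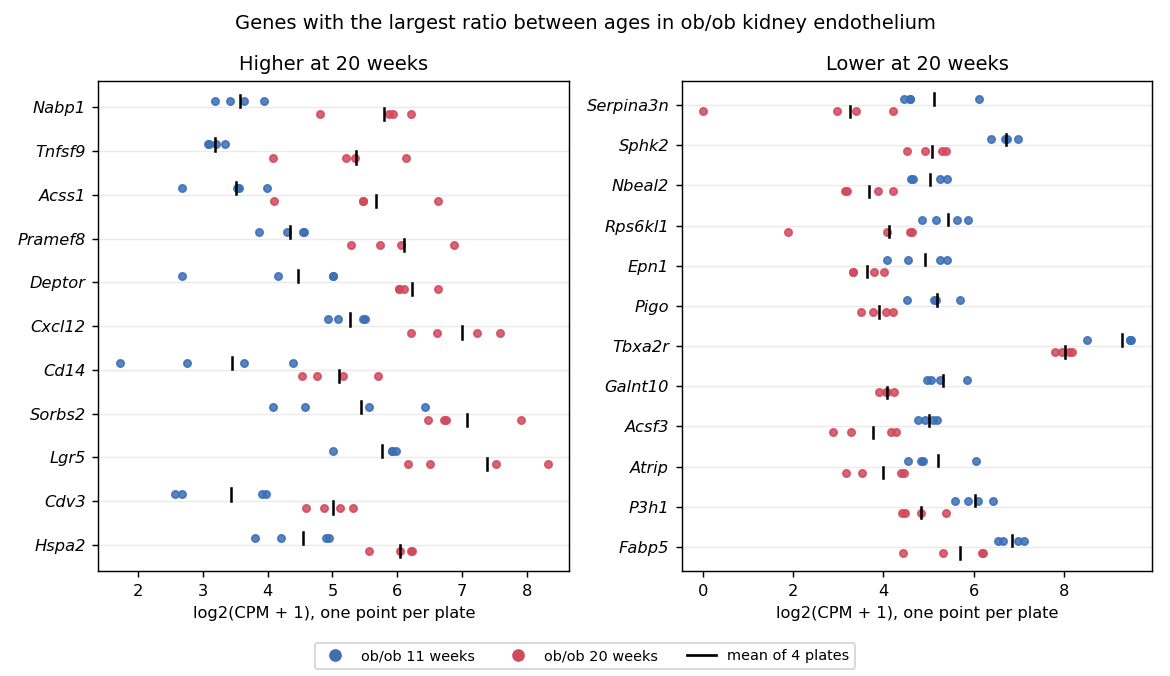
Level of 23 named genes with the largest ratios, as log2(CPM + 1), with one point per plate for *ob/ob* at 11 weeks (blue) and 20 weeks (red) and a bar at the mean CPM of 4 plates. The ages do not overlap for any of these genes, since that was part of the rule, and the 20-week plates spread widely for *Acss1*, *Lgr5* and *Sorbs2*.

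The leading genes higher at 20 weeks included *Nabp1*, *Tnfsf9*, *Acss1*, *Pramef8*, *Deptor*, *Cxcl12*, *Cd14*, *Sorbs2*, *Lgr5*, *Cdv3* and *Hspa2*. *Nabp1*, which encodes a protein that binds single-stranded DNA (chromosome 1, 51465862 to 51478425, minus strand, GRCm38), was 14.3, 9.73, 8.15 and 11.4 CPM at 11 weeks and 26.9, 60.2, 72.8 and 57.8 CPM at 20 weeks. Its mean was 10.9 ± 2.64 and 54.4 ± 19.5 CPM (SD, n = 4 plates), a 4.66-fold ratio, and its pooled level was 10.7 CPM (10.3 to 11.2) and 48.6 CPM (47.8 to 49.4). All 4 plates were low at 11 weeks, and plate 040s was the lowest at 20 weeks. *Tnfsf9*, the ligand of the co-stimulatory receptor 4-1BB, was 7.42 to 9.10 CPM at 11 weeks and 16.0, 39.7, 69.1 and 36.0 CPM at 20 weeks (4.54-fold). *Acss1*, a mitochondrial enzyme that makes acetyl-CoA from acetate, was 14.9, 10.8, 5.38 and 10.6 CPM against 16.1, 43.3, 97.8 and 43.6 CPM (4.48-fold). For both genes 040s was the lowest plate at 20 weeks, just above 1052s for *Acss1*, and 044s the highest.

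*Deptor*, an inhibitor of the growth kinase mTOR, was more even at 20 weeks. It was 31.1, 16.8, 5.38 and 31.3 CPM at 11 weeks and 63.9, 98.4, 64.3 and 67.6 CPM at 20 weeks (3.37-fold). *Cxcl12*, a chemokine that binds CXCR4 and marks the afferent arteriole here (chromosome 6, 117168535 to 117181367), was 43.5, 33.0, 44.4 and 29.4 CPM against 73.0, 97.1, 190.2 and 149 CPM (3.33-fold), with pooled levels of 36.2 CPM (35.4 to 37.0) and 115 CPM (114 to 116). The 11-week *ob/ob* plates were also below Lean plates at 11 weeks (74.6 to 112 CPM) and *ob/ob* plates at 6 weeks (93.4 to 190.4 CPM) for *Cxcl12*. *Lgr5*, a receptor of R-spondins, was 59.6, 59.7, 31.3 and 61.9 CPM against 89.9, 71.0, 319 and 183 CPM (3.08-fold), and *Sorbs2*, an adaptor of actin fibres and cell contacts, was 16.0 to 85.0 CPM against 87.9 to 239.6 CPM (3.11-fold). Both were set apart from 11 weeks by a narrow gap on their lowest 20-week plates. *Hspa2*, of the HSP70 chaperone family, was 13.0 to 29.7 CPM against 46.5 to 73.8 CPM (2.82-fold), and the co-receptor of bacterial lipopolysaccharide *Cd14* was 2.29 to 20.0 CPM against 22.0 to 51.0 CPM (3.17-fold). *Cdv3* had 4.92 to 14.7 CPM at 11 weeks and 23.1 to 38.9 CPM at 20 weeks. *Pramef8* was 13.6 to 22.6 CPM against 38.2 to 116 CPM, and it belongs to a family of near-identical copies that can share reads, so its level is uncertain. With TMM and with DESeq2 scaling *Lgr5* and *Cd14* were no longer called. Part of the exons of *Tnfsf9* (14.9%) overlaps a non-coding gene on the other strand, and the strand setting of the counting is not stated.

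The leading genes lower at 20 weeks were *Serpina3n*, *Sphk2*, *Nbeal2*, *Rps6kl1*, *Epn1*, *Pigo*, *Tbxa2r*, *Galnt10*, *Acsf3*, *Atrip*, *P3h1* and *Fabp5*. *Serpina3n*, an inhibitor of serine proteases (chromosome 12, 104406729 to 104414329), was 68.0, 22.9, 23.1 and 21.0 CPM at 11 weeks and 17.6, 9.47, 0 and 6.87 CPM at 20 weeks, a 3.66-fold ratio in which plate 1052s stood far above its group. *Sphk2*, a kinase that makes sphingosine 1-phosphate (chromosome 7, 45709467 to 45718002), was 106, 102, 126 and 82.0 CPM against 38.5, 22.0, 29.5 and 40.7 CPM (3.12-fold lower, pooled 101 CPM with an interval of 100.1 to 103, and 34.3 CPM with 33.7 to 35.0). All 4 plates of an age were close to each other for *Sphk2*. Its exons share 539 bases with the clock gene *Dbp* and 373 bases with *Rpl18*, a ribosomal protein gene, both on the opposite strand, so reads of these genes cannot be told apart there. *Tbxa2r*, the receptor of the vasoconstrictor and platelet agonist thromboxane A2 (chromosome 10, 81328731 to 81335172), was 366, 707, 719.6 and 706 CPM against 221, 292, 278 and 249 CPM, with means of 625 ± 173 and 260.0 ± 31.6 CPM (2.40-fold lower). It had the highest level of the 23 genes plotted by plate, and plate 1052s was the 11-week plate nearest to 20 weeks.

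*Nbeal2*, needed for platelet granules, was 23.3 to 41.6 CPM against 7.84 to 17.6 CPM (2.54-fold lower). The endocytosis adaptor *Epn1* was 15.9 to 41.4 CPM against 8.95 to 15.1 CPM (2.42-fold). *Pigo*, an enzyme of GPI-anchor synthesis, was 22.1 to 50.8 CPM against 10.3 to 17.6 CPM (2.41-fold). Each of these was lower on every 20-week plate, with the gap smallest for *Epn1*. The glycosyltransferase *Galnt10* was 30.3 to 56.5 CPM against 14.0 to 17.9 CPM (2.38-fold), and *P3h1*, which modifies proline in collagen, 47.4 to 84.8 CPM against 20.2 to 40.9 CPM (2.31-fold). *Acsf3*, a mitochondrial malonyl-CoA synthetase, was 26.1 to 35.7 CPM against 6.35 to 18.4 CPM (2.35-fold), *Rps6kl1* was 27.8 to 57.5 CPM against 2.66 to 23.8 CPM, and *Atrip*, the partner of the DNA damage kinase ATR, was 22.2 to 65.5 CPM against 7.93 to 20.9 CPM. *Atrip* shares 16.0% of its exon bases with *Trex1* on the same strand and is uncertain.

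Arteriolar genes lay mostly higher at 20 weeks. All 10 measured afferent arteriole (AA) markers had a log2 ratio above 0, where 56.6% of all genes did. Their median was 0.71 against 0.07 for all genes. Only *Cxcl12* and *Fbln5* were called, where 2.64% of all genes were called higher. *Fbln5*, an elastic fibre protein of arterioles, was 366, 218, 251 and 228 CPM at 11 weeks and 376, 428, 751 and 419 CPM at 20 weeks (1.86-fold, means 266 ± 68.1 and 494 ± 173 CPM). Plates 1052s and 040s nearly met. *Aif1l*, found with *Fbln5* in the efferent arteriole (EA) list, was 45.1, 24.8, 24.2 and 20.7 CPM against 54.6, 60.1, 87.3 and 62.0 CPM (2.25-fold). The gap junction gene *Gja5* was 53.7 to 184 CPM against 133 to 335 CPM and overlapped, as did the tight junction gene *Cldn5* (199 to 378 against 251 to 729.7 CPM), the transcription factor *Sox17* (342 to 498 against 402 to 850.3 CPM) and *Vwf* (13.8 to 81.7 against 35.3 to 77.5 CPM). Of the 5 descending vasa recta (DVR) markers none was called and all had a log2 ratio above 0 (median 0.49). The summed AA level was 2078, 1446, 1677 and 1421 CPM at 11 weeks and 1731, 2576, 3694 and 2389 CPM at 20 weeks, so the ages overlapped through plates 1052s and 040s. Lean plates gave 1888 to 2586 CPM at 11 weeks and 1529 and 1873 CPM at 20 weeks.

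The vascular tone list, which holds channels, endothelin and nitric oxide genes, was the one list besides the TGF-beta list whose summed level did not overlap in CPM. It was 4705 to 5579 CPM at 11 weeks and 5713 to 7406 CPM at 20 weeks, a log2 difference of 0.26, and plate 044s stood alone at 20 weeks. With DESeq2's size factors, 0.6395 for 1054s and 1.203 for 045s, these plates change order by a small margin and the ages overlap. Lean plates separated in the same direction, with 4806 to 5507 CPM at 11 weeks and 5597 and 5617 CPM at 20 weeks. Its members *Cav2* and *Kcnn3* were called higher, out of 24, where 2.64% of all genes were. *Cav2*, a caveolin of the endothelial surface pits, was 456, 334, 252 and 229 CPM against 559, 498, 692 and 457 CPM (1.73-fold). Plates 1052s and 045s nearly met, and the call was lost with DESeq2 scaling. *Kcnn3*, a calcium-activated potassium channel that hyperpolarizes endothelium, was 6.51, 3.45, 0 and 0.487 CPM against 7.52, 21.1, 28.0 and 11.0 CPM. One cell held 41.5% of its counts at 11 weeks. The related channel *Kcnn4* was 5.55 to 28.1 CPM against 7.82 to 64.3 CPM, endothelin 1 (*Edn1*) 56.7 to 115 CPM against 92.3 to 220.2 CPM and *Nos3*, which makes nitric oxide, 151 to 266 CPM against 168 to 232 CPM, and none of the 3 was called.

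**Figure D2:**
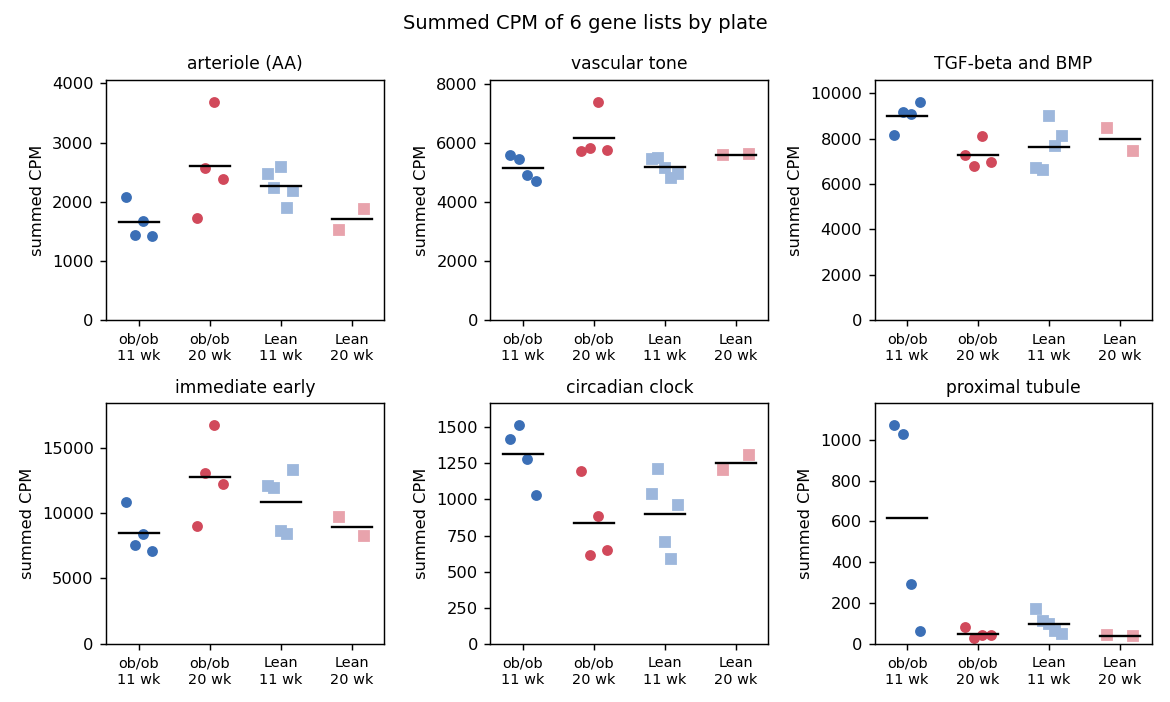
Summed CPM of the measured members of 6 gene lists, one point per plate, for *ob/ob* (circles) and Lean (squares) at 11 and 20 weeks, with a bar at the mean. Vascular tone and TGF-beta sums of *ob/ob* do not overlap between ages, the latter by a small gap, and the other 4 do. Proximal tubule markers reach over 1000 CPM on 2 of the 4 *ob/ob* plates at 11 weeks.

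Stress genes were a further group with members higher at 20 weeks. *Hspa5*, the main chaperone of the endoplasmic reticulum (ER), was 788, 512, 504 and 755 CPM at 11 weeks and 829, 1060.4, 1268 and 1017 CPM at 20 weeks (1.63-fold, means 639.7 ± 153 and 1044 ± 180.1 CPM). *Dnajb9*, a co-chaperone that works with it in the unfolded protein response, was 170.1, 89.2, 121 and 163 CPM against 287, 325, 309.5 and 206 CPM (2.07-fold). *Ppp1r15a*, which restores translation after stress, was 350.5, 208, 247 and 238 CPM against 396, 579, 731 and 552 CPM (2.16-fold, pooled 251 CPM with an interval of 249 to 253, and 523 CPM with 521 to 526). For all 3 the *ob/ob* plates at 6 weeks were above the 11-week means, at 761 to 856, 262 to 289 and 393 to 589 CPM. The rest of the list of the unfolded protein and integrated stress responses did not follow. Of 22 members 2 were called higher, where 2.64% of all genes were, and the median log2 ratio was 0.03. *Atf4*, the central transcription factor of the response, was 243 to 348 CPM against 143 to 362 CPM. The call of *Hspa5* was lost with TMM and with DESeq2 scaling, at a log2 ratio of the same sign.

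The promoters are printed for these 3 called genes, of which *Hspa5* and *Dnajb9* belong to the stress response list and *Ppp1r15a* to that of immediate early genes. RefSeq sequences (GRCm38.p6, 250 bases before to 50 after the start) were matched by symbol for 53 of the 66 named genes. Capitals mark the letters CCACG, or CGTGG on the other strand, which form one part of the ER stress response element, in *Hspa5* (chr2:34771840-34772139, plus strand) and *Dnajb9* (chr12:44210019-44210318, minus strand), and the cAMP response element TGACGTCA in *Ppp1r15a* (chr7:45526219-45526518, minus strand). CCACG occurred in 32.8% and TGACGTCA in 1.79% of 32817 promoters.
Hspa5: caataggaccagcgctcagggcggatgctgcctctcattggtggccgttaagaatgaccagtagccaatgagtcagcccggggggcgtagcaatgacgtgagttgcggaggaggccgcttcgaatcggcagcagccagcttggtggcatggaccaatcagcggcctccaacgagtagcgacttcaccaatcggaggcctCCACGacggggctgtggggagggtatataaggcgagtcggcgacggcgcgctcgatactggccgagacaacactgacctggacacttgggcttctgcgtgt
Dnajb9: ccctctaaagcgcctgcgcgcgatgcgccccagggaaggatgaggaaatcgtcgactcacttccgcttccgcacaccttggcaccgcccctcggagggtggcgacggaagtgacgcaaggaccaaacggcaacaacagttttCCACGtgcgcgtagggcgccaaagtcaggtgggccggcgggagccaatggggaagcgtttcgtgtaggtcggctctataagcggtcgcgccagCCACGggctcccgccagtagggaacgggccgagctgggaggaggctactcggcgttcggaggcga
Ppp1r15a: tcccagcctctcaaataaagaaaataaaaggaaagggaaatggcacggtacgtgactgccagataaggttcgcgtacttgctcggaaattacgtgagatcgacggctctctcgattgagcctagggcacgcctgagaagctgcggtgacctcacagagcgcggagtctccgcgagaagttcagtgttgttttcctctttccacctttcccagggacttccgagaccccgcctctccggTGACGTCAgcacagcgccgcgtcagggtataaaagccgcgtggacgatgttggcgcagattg
The match in *Hspa5* begins 51 bases and that in *Ppp1r15a* 12 bases before the start, and *Dnajb9* has matches 108 and 15 bases before it. These are matches of letters and say nothing of binding.

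Immediate early genes are induced within minutes of a stimulus, and they respond to tissue dissociation. *Ppp1r15a* was the only 1 of 19 members called, where 2.64% of all genes were higher. Of the 19, 17 had a log2 ratio above 0 (median 0.60), where 56.6% of all genes did. *Egr1* was 816, 485, 518 and 377 CPM against 658, 1395, 1375 and 1277 CPM, *Fosb* 62.2 to 278 CPM against 149.5 to 782 CPM, and *Nr4a1* 205 to 421 CPM against 333 to 989 CPM. For each of these transcription factors 1052s was the highest plate at 11 weeks and 040s the lowest at 20 weeks. The summed level was 10806, 7537, 8361 and 7095 CPM against 8984, 13069, 16708 and 12224 CPM, with Lean plates at 8402 to 13295 CPM at 11 weeks and 8212 and 9692 CPM at 20 weeks. Of the 14 heat shock genes 12 had a log2 ratio above 0 (median 0.45), and *Hspa5* was the only member called. The part of cell handling in these levels was not tested.

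Of 28 interferon response genes 3 were higher and none lower, with a median log2 ratio of 0.14, where 2.64% of all genes were higher. *Gbp3*, a guanylate-binding GTPase of cell defence, was 80.8, 79.5, 122 and 154 CPM at 11 weeks and 284, 240.2, 183 and 199 CPM at 20 weeks (2.07-fold). *Gbp7*, its neighbour on chromosome 3, was 173, 118, 139 and 162 CPM against 298, 226, 221 and 199.6 CPM (1.59-fold), and *Ifit1*, which binds viral RNA, 71.9, 53.8, 98.9 and 107 CPM against 118, 150.4, 122 and 117 CPM (1.52-fold). The call of *Ifit1* was lost with TMM and DESeq2 scaling and without 1052s, 1053s or 042s, and that of *Gbp7* with DESeq2 scaling and without 1053s or 040s, at log2 ratios of the same sign. *Gbp3* was called in each of these. Plate 040s was the highest for both guanylate-binding proteins, in contrast to the stress genes. The Gbp genes are paralogs that can share reads, and a pseudogene overlaps exons of *Gbp7* on the same strand. The transcription factor *Irf7* overlapped, at 154 to 433 CPM against 246 to 355 CPM. The promoters of *Gbp3* (chr3:142559794-142560093, plus strand) and *Gbp7* (chr3:142530086-142530385, plus strand) are shown with the core of the interferon-stimulated response element, TTCNNTTTC on either strand, in capitals, which occurred in 8.55% of promoters.
Gbp3: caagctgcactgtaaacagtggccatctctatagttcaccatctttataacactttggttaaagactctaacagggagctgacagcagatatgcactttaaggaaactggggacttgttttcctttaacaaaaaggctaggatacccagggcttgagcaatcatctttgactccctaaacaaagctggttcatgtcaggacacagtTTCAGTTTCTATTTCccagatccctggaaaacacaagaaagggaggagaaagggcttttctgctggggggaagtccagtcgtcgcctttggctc
Gbp7: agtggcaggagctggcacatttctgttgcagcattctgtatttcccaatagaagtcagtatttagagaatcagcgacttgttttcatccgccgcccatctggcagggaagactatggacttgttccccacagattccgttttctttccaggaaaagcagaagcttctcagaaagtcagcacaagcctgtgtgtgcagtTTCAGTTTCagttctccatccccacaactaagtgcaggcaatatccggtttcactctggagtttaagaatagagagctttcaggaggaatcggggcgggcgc
*Gbp3* holds 2 overlapping matches, beginning 44 and 38 bases before the start, and *Gbp7* 1 that begins 52 bases before it. A second promoter of *Gbp3* in the table held none.

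Genes that carry fatty acids and glucose across the endothelium included members lower at 20 weeks. *Fabp5*, a fatty acid binding protein, was 126, 139, 99.0 and 92.1 CPM at 11 weeks and 38.7, 72.6, 20.5 and 71.9 CPM at 20 weeks (2.21-fold lower). *Gpihbp1*, which holds lipoprotein lipase on the capillary wall (chromosome 15, 75596628 to 75599481), was 851, 867, 762 and 682 CPM against 659.9, 609, 219 and 378 CPM (1.69-fold lower, means 791 ± 85.6 and 466 ± 206 CPM). The gap between 1056s and 040s was small for *Gpihbp1*, and 044s was the lowest plate for both genes. Without 044s *Gpihbp1* was not called (log2 ratio -0.53). *Fabp5* and *Gpihbp1* were the 2 called lower of 25 fatty acid genes, where 1.20% of all genes were. The list as a whole leaned neither way, since 13 of the 25 had a log2 ratio above 0 and the median was 0.03. The other 23 were not called, among them *Cd36*, a fatty acid translocase, at 598 to 742 CPM against 588 to 1244 CPM, and *Fabp4* at 949 to 1665 CPM against 475 to 1284 CPM. *Slc2a1*, the glucose transporter GLUT1, was 172, 158, 160.3 and 141 CPM against 127, 68.5, 113 and 85.2 CPM (1.60-fold lower). Its log2 ratio was -0.54 without plate 042s and -0.14 in cells with under 200 CPM of proximal tubule markers, and it was called in neither. It was the 1 member called of 19 genes of glycolysis and glucose uptake, where 1.20% of all genes were lower. The median log2 ratio of these 19 was -0.32 in *ob/ob* and -0.32 in Lean.

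*Eng*, the TGF-beta and BMP co-receptor endoglin (chromosome 2, 32646595 to 32682669), was 3770.1, 4843, 5568 and 5926 CPM at 11 weeks and 3696, 2707, 3529.5 and 2805 CPM at 20 weeks (1.58-fold lower, means 5027 ± 951 and 3184 ± 501 CPM). Plates 1052s and 040s nearly met. The call was lost with TMM and DESeq2 scaling, and without plate 1056s, each at a log2 ratio of the same sign. The summed TGF-beta and BMP level was 8135 to 9628 CPM against 6807 to 8095 CPM without overlap, with means of 9011 and 7288 CPM (log2 difference -0.31). The gap was small, between 8135 CPM on 1052s and 8095 CPM on 044s. With TMM factors, 1.05 for 1052s and 0.988 for 044s, these plates change order and the ages overlap. The means of *Eng* alone differed by more than those of the sum. Of the 24 members 13 had a log2 ratio above 0, and the median was 0.06. The 14 pan-endothelial genes had a median log2 ratio of -0.29, with 12 below 0 and *Eng* as the only one called. *Lama5*, a laminin chain of the glomerular basement membrane, was 217 to 259.8 CPM against 109 to 181 CPM (1.54-fold lower), and it was not called without 1054s, 042s or 045s.

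In the Notch list *Hes1*, a target of the pathway, was higher at 183 to 242 CPM against 289.8 to 426 CPM (1.55-fold). *Lfng*, a glycosyltransferase that tunes Notch receptors, was lower at 59.8, 88.6, 35.5 and 50.4 CPM against 21.8, 24.9, 33.8 and 24.2 CPM (2.19-fold). *Hes1* was not called with TMM or DESeq2 scaling, nor without 1056s or 042s (log2 ratio 0.49 without the last). The receptors *Notch1* (312 to 562 against 311 to 556 CPM) and *Notch4* (162 to 249 against 111 to 244 CPM) and the ligand *Dll4* (293 to 505 against 273 to 722 CPM) overlapped. Of the 18 VEGF and angiopoietin genes only *Nrp1*, a co-receptor of VEGF, was called higher, where 2.64% of all genes were. It was 1852, 1524, 986 and 1235 CPM against 2004, 2046, 2326 and 2170.0 CPM (1.53-fold). This call was lost with TMM (log2 ratio 0.57) and DESeq2 scaling (0.53) and without 1054s, 1056s or 044s. The main receptor *Kdr* was 1467 to 1712 CPM against 1230.1 to 1632 CPM.

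**Figure D3:**
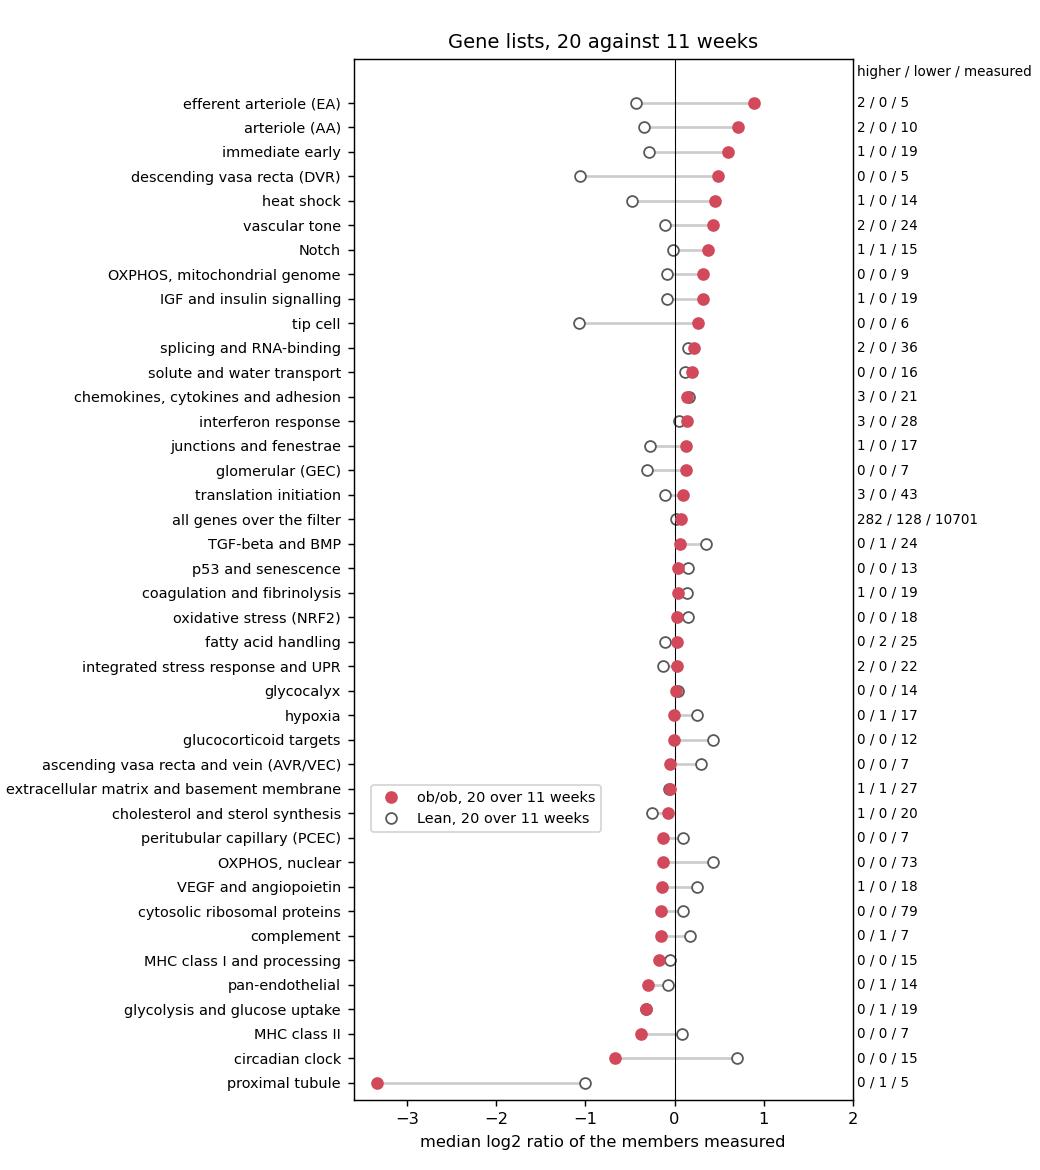
Median log2 ratio of 20 over 11 weeks for lists with at least 5 measured members, in *ob/ob* (filled) and Lean (open), with the numbers of members called higher, called lower and measured in *ob/ob* at the right. Arteriolar and immediate early lists lie highest in *ob/ob*, and clock and proximal tubule lists lowest, while few members of any list were called.

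Of 43 translation initiation genes 3 were higher, where 2.64% of all genes were: *Eif1a* (30.2 to 56.4 against 82.3 to 114 CPM, 2.35-fold), *Eif4a2* (330.1 to 446 against 499.8 to 612 CPM, 1.58-fold) and the helicase *Eif4a1* (188 to 248 against 277 to 359.8 CPM, 1.53-fold). With DESeq2 scaling *Eif1a* alone of the 3 was called, and with TMM *Eif4a1* was lost. Of 36 splicing factors 2, *Srsf5* (227 to 387 against 393 to 542 CPM) and *Tra2b* (104 to 145 against 172 to 196 CPM), were higher as well, and *Tra2b* was lost under both scalings. *Igf2r*, which clears IGF2 and sorts lysosomal enzymes, was 6.29 to 10.7 CPM against 14.1 to 31.2 CPM (2.25-fold), and *Procr*, the endothelial receptor of protein C, was 43.5 to 53.5 CPM against 68.3 to 113 CPM (1.66-fold). *Nfkbiz*, a nuclear modifier of NF-kappaB, was 32.9 to 89.7 CPM against 94.8 to 186 CPM (2.08-fold), and *Insig1*, a sensor of sterols, 39.2 to 73.8 CPM against 83.2 to 92.5 CPM (1.51-fold). *Insig1* was lost under both scalings, and *Procr* without 044s. Lower were *Stmn1*, a microtubule regulator of dividing cells, at 54.3 to 64.2 CPM against 16.0 to 48.7 CPM (1.57-fold), and the complement regulator *Cd46* at 5.41 to 13.0 CPM against 3.22 to 4.61 CPM (1.73-fold). The first was not called without 044s (log2 ratio -0.40) and the second not without 1053s.

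No member was called among 73 nuclear genes of oxidative phosphorylation (median log2 ratio -0.13, Lean 0.43), 9 mitochondrial ones (0.32), 79 cytosolic ribosomal protein genes (-0.15), 15 genes of MHC class I (-0.17), 7 of MHC class II (-0.38), 18 of the NRF2 response (0.03), 13 of p53 and senescence (0.04) or 14 of the glycocalyx (0.01). The nuclear oxidative phosphorylation sum showed the same 2 levels of plate within each age as the ribosomal genes. It was 13916 and 14163 CPM against 8610 and 9098 CPM at 11 weeks, and 13843 and 11889 CPM against 8981 and 7168 CPM at 20 weeks. With such a spread within an age the rule could hardly call members of these lists. The lack of calls there does not show equal levels. Among marker lists the 7 glomerular markers had a median of 0.13 and the 7 peritubular capillary markers one of -0.12, with none called.

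The circadian clock list had no member called and yet the lowest median of the functional lists, -0.67 over 15 genes. *Dbp*, an output gene of the clock, was 155, 187, 82.9 and 39.0 CPM at 11 weeks and 47.6, 9.25, 16.8 and 14.0 CPM at 20 weeks, so plates 1056s and 040s crossed. *Nr1d1*, a repressor in the clock loop, was 387, 455, 548 and 386 CPM against 425, 106, 186 and 164 CPM, and *Per1* 192, 235, 53.5 and 176 CPM against 122, 65.3, 72.7 and 58.8 CPM. *Arntl*, the activator whose cycle runs opposite to theirs, was 37.3, 51.4, 54.6 and 75.6 CPM against 81.8, 68.9, 113 and 118 CPM. Without plate 040s the list sum had a log2 difference of -0.87 in place of -0.65, and without 1052s and 1053s one of -0.47. In Lean the list leaned the other way, with a median of 0.70. There *Dbp* was 12.1 to 88.4 CPM at 11 weeks and 167 and 182 CPM at 20 weeks, and *Arntl* 41.5 to 120.3 CPM and 35.0 and 40.6 CPM. The time of day of collection is not given in the sources used here.

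**Figure D4:**
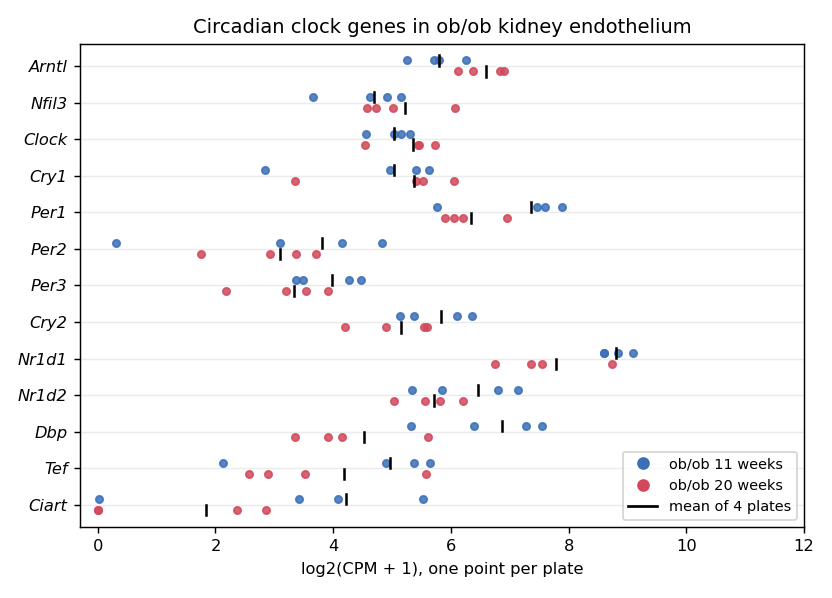
Level of 13 clock genes as log2(CPM + 1), one point per plate, for *ob/ob* at 11 weeks (blue) and 20 weeks (red), with a bar at the mean CPM of 4 plates. *Dbp*, *Nr1d1*, *Per1* and *Ciart* lie mostly lower and *Arntl* mostly higher at 20 weeks, and every gene shown has overlapping plates.

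Proximal tubule markers had the lowest median log2 ratio of the lists (-3.34), and their part in the other results was not tested. The proximal tubule sum was 1071, 1029, 292 and 64.5 CPM at 11 weeks and 80.4, 29.9, 43.3 and 44.9 CPM at 20 weeks, and the distal nephron sum 182, 146, 75.5 and 12.7 CPM against 24.6 to 65.6 CPM. Among the genes called lower were 2 of the tubule, *Miox* (1.01 to 27.7 against 0.187 to 0.761 CPM) and the water channel *Aqp2* (1.91 to 45.7 against 0 to 1.17 CPM). Both were highest on 1052s and 1053s. Lymphatic markers summed to 296 to 518 CPM against 217 to 328 CPM. Leukocyte markers summed to 8.17 to 24.5 CPM against 10.5 to 26.4 CPM and mural markers to 31.4 to 43.5 CPM against 28.4 to 64.4 CPM. Without plates 1052s and 1053s, an alternative chosen after seeing the data, the 11-week group had 2 plates and 1495 genes were higher and 624 lower, and of the genes called on all plates 265 of 282 and 108 of 128 were still called. Of the 55 named genes called, *Cd46* and *Ifit1* were not. Leaving out plates cannot make the plates of a called gene overlap. Such a gene could be lost there only through the 1.5-fold or the 5 CPM minimum. Restricted to cells with under 200 CPM of proximal tubule markers, which left 5 cells on 1052s and 20 on 1053s, 156 of the 282 and 40 of the 128 were still called. Of the named genes 26 of 55 were not called there, among them *Tnfsf9*, *Serpina3n*, *Nbeal2*, *Epn1*, *Pigo*, *P3h1*, *Fabp5*, *Gpihbp1*, *Aif1l*, *Cav2*, *Gbp7*, *Hes1*, *Nrp1*, *Lama5* and *Procr*, each at a log2 ratio of the same sign.

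Genes that the study had singled out gave few separations. *Serinc3*, a membrane protein that carries serine into lipids, was 568, 647, 591 and 431 CPM at 11 weeks and 319.8, 306, 339.6 and 249 CPM at 20 weeks (1.84-fold lower, means 559 ± 92.0 and 304 ± 38.9 CPM). *Ucp2*, an uncoupling protein of mitochondria, was 792, 1088, 690.3 and 1092 CPM against 726, 426, 416 and 395 CPM and was not called, since 040s lay above 1054s. It was called lower under TMM and DESeq2 scaling and without either of these plates. *Igf1* was 48.7, 25.1, 39.3 and 21.2 CPM against 16.5, 49.0, 103 and 105 CPM, with 040s the one low plate at 20 weeks, and was called higher without 040s. Its binding proteins *Igfbp3* (318 to 575 against 385 to 642 CPM), *Igfbp4* (403 to 721 against 322 to 605 CPM) and *Igfbp5* (309.8 to 907 against 748 to 923 CPM) overlapped, as did *Lias*, *Chek2*, *Tbc1d31*, *Son*, *Rbm4b* and *Igf2bp2*, whose log2 ratios were between -0.85 and 0.57.

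Among the 55 named genes called in *ob/ob*, 6 differed without overlap in the other direction in Lean. Another 2, *Cdv3* and *Pramef8*, did so in the same direction. Of all genes, 4.80% were called higher and 4.02% lower in Lean. *Serinc3* was 179 to 349 CPM in Lean at 11 weeks and 529 and 601 CPM at 20 weeks (log2 ratio 1.17, against -0.88 in *ob/ob*). *Gpihbp1* was 325 to 561 CPM and 799.5 and 804 CPM in Lean, *Lfng* 17.9 to 33.5 CPM and 51.2 and 65.4 CPM, and *Galnt10* 12.1 to 41.2 CPM and 44.0 and 61.9 CPM. In Lean all 4 genes were higher on both plates at 20 weeks. *Ppp1r15a* was 296 to 517 CPM and 189.6 and 284 CPM in Lean, and *Acss1* 14.4 to 46.7 CPM and 10.8 and 13.9 CPM. Both Lean plates at 20 weeks lacked *Xist*, the difference between genotypes was not tested, and it rests on 2 plates.

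**Figure D5:**
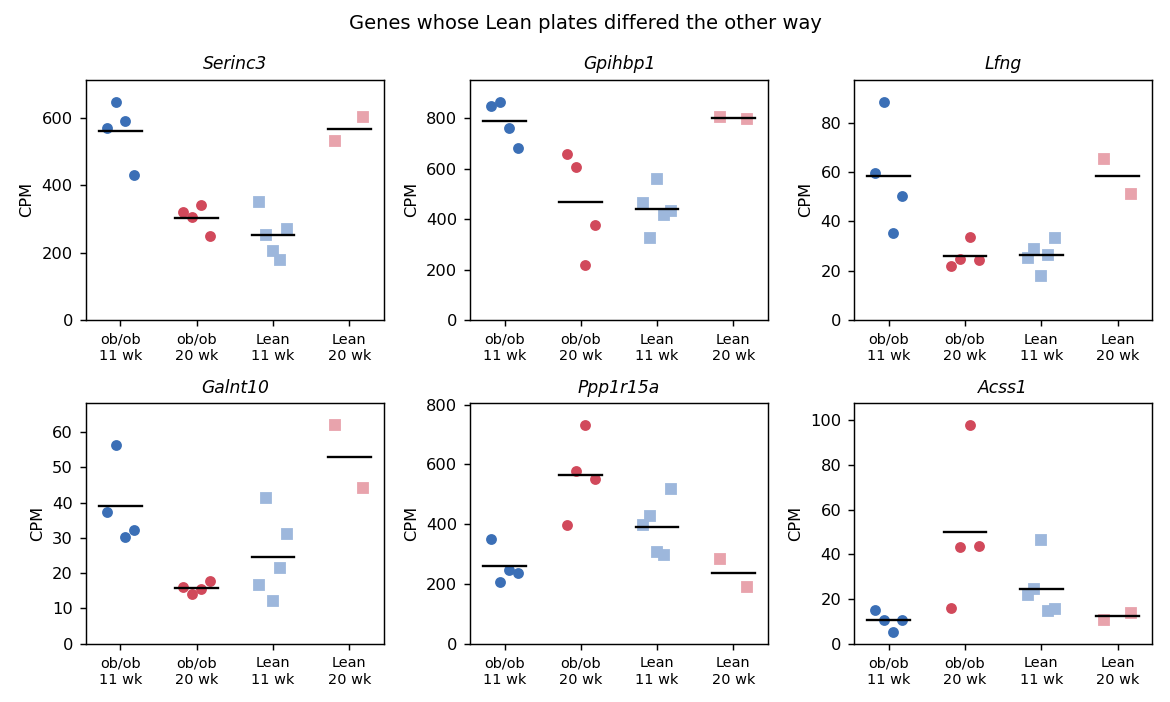
CPM of 6 genes, one point per plate, in *ob/ob* (circles) and Lean (squares) at 11 and 20 weeks, with a bar at the mean. *Serinc3*, *Gpihbp1*, *Lfng* and *Galnt10* are lower at 20 weeks in *ob/ob* and higher in Lean, and *Ppp1r15a* and *Acss1* the reverse.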

How the data were processed

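Adapter trimming by the authors used trim galore. They aligned reads to GRCm38 with TopHat 2.1.1, removed duplicates with Samtools 0.1.18, counted reads per gene with featureCounts (Subread 1.4.6-p5), and removed cells with fewer than 50000 counts or with epithelial genes. The annotation release and strand setting are not given in the sources used here. They deposited raw counts per cell without normalization. From these counts, sums per plate, CPM, means, SDs and log2 ratios with 1 CPM added were computed in Python 3.11.15. Of 29735 symbols, 1298 on chromosomes X and Y and 2212 without a chromosome in GENCODE M21 or RefSeq were left out. TMM factors (edgeR 4.0.16) and size factors (DESeq2 1.42.0) served as alternatives. Named genes were, in each direction, the 12 called genes with the largest ratio among those of at least 20 CPM detected in at least 10% of cells, up to 4 called members of each of 48 gene lists, and 12 genes of the study. Of these, 1 leading gene is not reported here. List members outside this rule are named with values only. The comparison, lists and rules were chosen with earlier results of these data known. *Xist*, *Ddx3y* and *Eif2s3y* served only as a check of the labels.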

Additional observations from a re-analysis of the deposited data

Results flagged for a closer look

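On 1 plate each, 11 values stood apart from the other 3 of their group by Dixon's criterion at 95%, out of 142 sets of 4 plates examined, and chance flags about 1 in 20 sets. At 11 weeks these were *Serpina3n* (68.0 CPM) and *Tbxa2r* (366 CPM) on plate 1052s, *Lgr5* (31.3 CPM) and *Atrip* (65.5 CPM) on 1054s, the sum of mural and mesenchymal markers (31.4 CPM) on 1053s and that of IGF and insulin signalling genes (1904 CPM) on 1052s. At 20 weeks they were *Deptor* on 042s (98.4 CPM) and, on 044s, *Sorbs2* (239.6 CPM) and the sums of distal nephron markers (65.6 CPM), hypoxia genes (2885 CPM) and vascular tone genes (7406 CPM).

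For 6 of the 55 named genes called, the Lean plates differed between 11 and 20 weeks without overlap and in the direction opposite to *ob/ob*. Their log2 ratios in Lean were 1.17 for *Serinc3*, 0.86 for *Gpihbp1*, 1.12 for *Lfng*, 1.08 for *Galnt10*, -0.71 for *Ppp1r15a* and -0.95 for *Acss1*. *Cdv3* and *Pramef8* differed without overlap in the same direction as in *ob/ob*. Of all 282 higher genes 10 were called lower in Lean, where 4.02% of all genes were. Of all 128 lower genes 9 were called higher in Lean, where 4.80% of all genes were. The difference between the genotypes was not tested.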

How the results depend on the processing

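The counts of 282 higher and 128 lower genes depended on the scaling and on the plates. DESeq2's size factors gave 191 and 199, a 2-fold minimum 110 and 53, and leaving out 1 plate at a time 384 to 680 higher and 161 to 275 lower, since fewer plates separate more easily. The counts passed 1.5 times the full ones without 1052s (680 and 275), 040s (513 and 256), 044s (450 and 234), 1053s (425 higher), 045s (210 lower) and 1056s (202 lower). Of the genes called on all plates, 248 to 272 higher and 115 to 126 lower ones were kept on leaving out 1 plate. A called gene could be lost there only through the 1.5-fold or the 5 CPM minimum. Added after seeing the data, the removal of 1052s and 1053s gave 1495 and 624, that of 040s and 1052s 993 and 473, and restriction to cells with under 200 CPM of proximal tubule markers 658 and 125, with 5 cells left on 1052s and 20 on 1053s. The log2 ratios of the 55 named genes called kept their direction in all 935 recomputed values and moved by over 1 SD in 15. Where plates were left out or the pseudocount was changed, this direction was fixed in advance, since the plates of a called gene did not overlap. Of the 55 calls, 10 were lost with TMM, 13 with DESeq2 scaling, 15 with the mean of the CPM of each cell, 14 in the cells with at least 3 glomerular markers and 26 in those with under 200 CPM of proximal tubule markers. Restriction to cells with at least 3 of 7 glomerular markers, which held 48.6% to 99.1% of the cells of a plate and is no cell type, gave 274 and 139. Cells with at most 1 such marker, or with no count of *Gja5*, *Slc14a1*, *Calca* and *Cytl1*, were absent from at least 1 plate and gave no value. No paired analysis was possible because plates carry no number shared between ages. The labels tie no plate to a mouse, so the spread between mice is not known.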
